A study of Oryza sativa Japonica Group with 4 samples.

Results

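Class III peroxidases are the secreted plant peroxidases, here taken as the rice genes whose symbol or synonym is PRX followed by a number and which are paired alone with a probe set. Of 17905 genes paired alone with a probe set, 2 met this rule, PRX74 (LOC4339222) and PRX112 (LOC4344279, also named POXGX9), and both are also the only 2 genes with such a name in the gene reference used. Peroxiredoxins, an unrelated family with similar symbols, were left out. Other class III peroxidase genes of rice that carry no PRX number in these tables are not analysed here.

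Panicle RNA of rice, Oryza sativa Japonica Group, was hybridised to Affymetrix arrays in 4 groups with 1 array each. The first 2 groups, wild type and the polaris (pola) mutant, were sampled in meiosis, from its early to its late part. The other 2, wild type and a POLA RNAi line of the T2 generation, were sampled during ripening, 10 to 15 days after pollination. Each sample pooled 20 panicles from 10 plants grown in a greenhouse under natural daylight, and no other treatment is given. The cultivar, the mutant allele, the RNAi construct and its promoter, and whether the RNAi sample held 1 line or more are not stated in the labels. The gene behind the mutation is not named in the tables used, so its own signal, which would check the labels, is not given. In 1 label of the RNAi sample wild lines are named instead of the RNAi line; the other labels were followed.

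Class III peroxidases are haem enzymes of the cell wall and vacuole that use hydrogen peroxide to oxidise phenolic compounds. They take part in joining lignin monomers and in cross-linking wall polymers, and they can also produce reactive oxygen species, which links them to wall loosening and to defence. Plants hold many copies of these genes, often side by side in the genome, and single copies tend to be active in particular organs and stages. In the panicle, the anther holds the tapetum, which nourishes young pollen, and the ripening grain holds the endosperm, the store of starch and protein.

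All values are linear MAS5 signals. Signals below 163, the highest of the 4 array medians, were raised to that floor before a log2 ratio was taken, since dim signals differed between the arrays, with medians of 124 in wild type and 51.8 in the mutant at meiosis, and of 163 in wild type and 65.7 in the RNAi line at ripening. A ratio against a signal below the floor is therefore a lower bound, and no ratio is given where both signals lie below it. With 1 array a group there is no replicate check, no difference was tested, and the precision is limited by that number of arrays. The arrays shared a 2% trimmed mean of 500.1, and between 76.6% and 83.7% of the genes read at or above the floor on an array. The GAPDH control of bright signal had a signal at the 3' end over that at the 5' end of 2.04 in wild type and 4.22 in the mutant at meiosis, and of 2.01 in wild type and 3.32 in the RNAi line at ripening. In the same order this ratio was 8.88, 12.3, 14.8 and 16.2 for actin and 1.42, 1.86, 1.90 and 1.27 for cyclophilin. At meiosis all of these controls were thus higher in the mutant than in wild type. At ripening GAPDH and actin were higher in the RNAi line than in wild type and cyclophilin was lower. Over 23 hybridization controls the median log2 ratio was 0.27 in the mutant and 0.30 in the RNAi line over wild type, and 0.74 and 0.75 in the stage comparisons. The part of RNA quality and hybridization in the results was not tested. Apart from the choice of 1 probe set per gene, signals of different probe sets are not set against each other, because probe sets differ in how strongly they bind.

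PRX74 was a gene of the meiotic panicle on these arrays. Its single probe set read 5490 in wild-type panicles and 8008 in the pola mutant at meiosis, and 63.5 in wild type and 26.0 in the RNAi line at ripening. Both meiotic arrays were high and both ripening arrays lay below the floor. In wild type, PRX74 was at least 33.6-fold lower at ripening than at meiosis, a log2 ratio of -5.07. Between the RNAi line at ripening and the mutant at meiosis, which share no array with that comparison, it was at least 49.0-fold lower, with -5.62. This second contrast is counted among the stage comparisons, but stage and line change together in it and cannot be told apart there.

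PRX112 was a gene of the ripening panicle by the probe set that represents it. That probe set is the brighter of 2 by mean signal over the 4 arrays. Its ripening signals decided this choice, because at meiosis the second probe set read higher on both arrays, with 231 and 633. The choice thus favoured a probe set that is high at ripening. The representing probe set read 74.96 in wild-type panicles and 4.28 in the mutant at meiosis, and 5949 in wild type and 6588 in the RNAi line at ripening. Both ripening arrays were high and both meiotic arrays lay below the floor, the reverse of PRX74. In wild type, PRX112 was at least 36.4-fold higher at ripening, a log2 ratio of 5.19. Between the RNAi line and the mutant it was at least 40.3-fold higher, with 5.33.

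**Figure D1:**
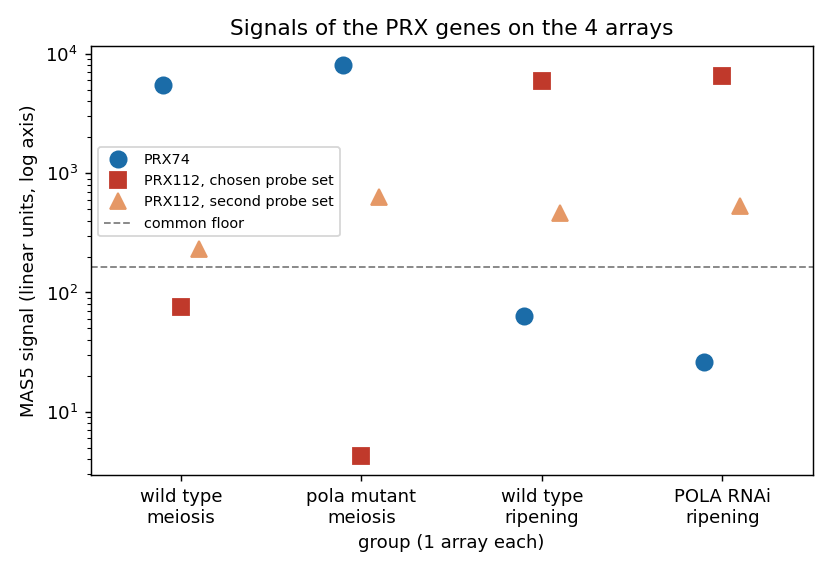
MAS5 signal (log axis) of PRX74 and of both PRX112 probe sets on the 4 arrays, 1 point per array, with the common floor of 163 dashed. PRX74 lies above the floor at meiosis only and the PRX112 probe set that represents the gene at ripening only. The second PRX112 probe set lies above it on all 4 arrays. Heights of different probe sets are not comparable.

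The members thus divided 1 higher and 1 lower in each stage comparison, and each stood well beyond 2-fold. Among all genes measured, 13.3% were at least 2-fold higher and 14.7% at least 2-fold lower at ripening in wild type, and 13.1% and 16.1% between the RNAi line and the mutant, so a stage difference of that size was common. Of 14841 genes measured in both comparisons, 9.72% were higher and 12.6% lower by that much in both. A difference of at least 32-fold was rarer: 0.577% of genes in wild type were that much higher at ripening, as PRX112 was, and 0.245% that much lower, as PRX74 was. In the comparison of the RNAi line with the mutant these shares were 0.776% and 0.358%. Both genes kept this size in both comparisons, together with 0.593% of those genes on the side of PRX112 and 0.236% on the side of PRX74, counts that include the members. The 32-fold mark was chosen after the values were seen. With a floor of 327, the bounds of all 4 stage ratios no longer reached it, with log2 ratios of -4.07 and -4.62 for PRX74 and 4.19 and 4.33 for PRX112.

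**Figure D2:**
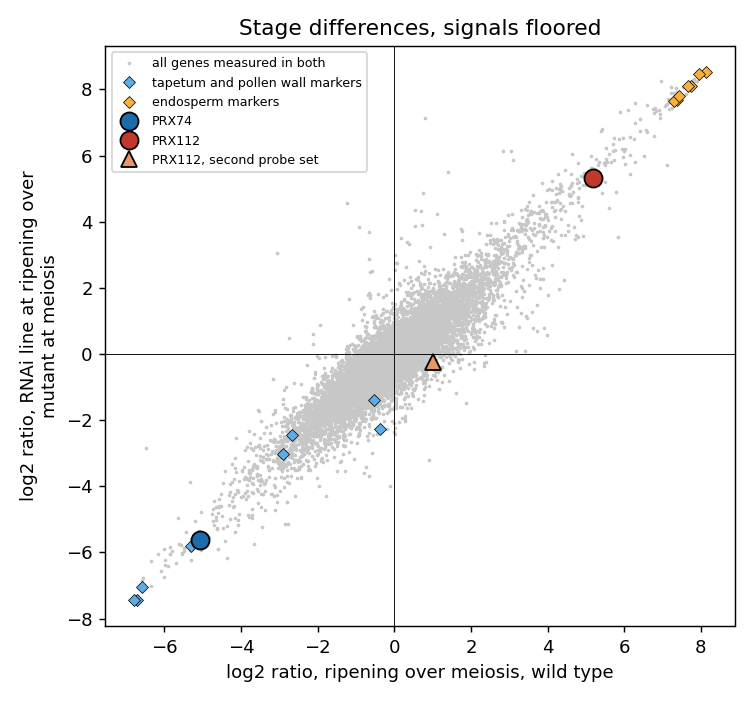
Log2 ratio of floored signals, ripening over meiosis in wild type (x axis) against RNAi line at ripening over mutant at meiosis (y axis), 1 grey point per gene, with PRX74, both PRX112 probe sets, and tapetum and endosperm markers coloured. PRX74 lies at -5.07 and -5.62 among the genes of lower signal at ripening and PRX112 at 5.19 and 5.33 among those of higher signal, while the second PRX112 probe set lies at 1.01 and -0.25.

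The second probe set paired with PRX112 did not show the same stage difference. It read 231 in wild-type panicles and 633 in the mutant at meiosis, and 466 in wild type and 533 in the RNAi line at ripening. All 4 signals lay above the floor, and that of the mutant at meiosis was the highest. Its log2 ratio of ripening over meiosis was 1.01 in wild type and -0.25 between the RNAi line and the mutant. Other genes also had probe sets that differed: of 176 genes past 2-fold higher at ripening in both stage comparisons and with another measured probe set, 81, or 46.0%, had at least 1 that did not go past 2-fold the same way in both. These counts include PRX112. They do not separate a smaller difference from one of opposite direction, as PRX112 had between the RNAi line and the mutant. Which of the PRX112 probe sets follows the transcript was not tested, and the stage difference of PRX112 rests on the representing one. Averaged over both probe sets, the ratio was 3.10 in wild type and 2.54 between the RNAi line and the mutant. PRX74 had no other probe set to compare.

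**Figure D3:**
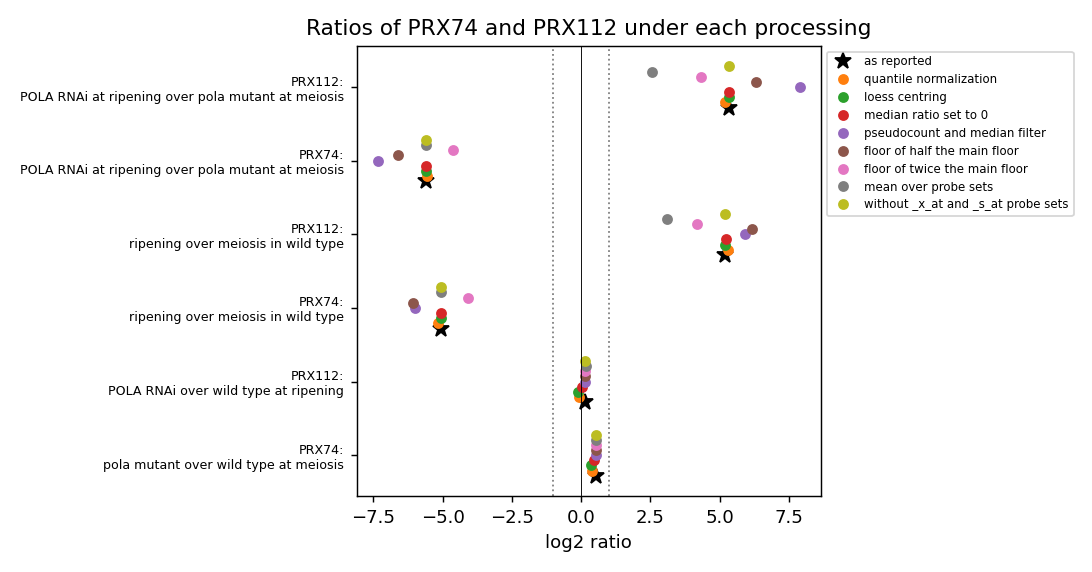
Log2 ratio (x axis) of PRX74 and PRX112 in each comparison where they were measured, with the value as reported as a star, each alternative processing as a circle, and 2-fold dotted. The 4 stage ratios stay past 2-fold throughout, from -7.34 to -4.07 for PRX74 and from 2.54 to 7.90 for PRX112, while the ratios of the mutant and the RNAi line over wild type stay within 2-fold. No processing shown uses the second PRX112 probe set alone.

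Markers of some stage-specific tissues moved with both genes. For PRX74, the 8 tapetum and pollen wall genes of the marker list all read above the floor at meiosis, with summed signals of 64763 in wild-type and 93436 in mutant panicles, and 2525 in wild type and 1593 in the RNAi line at ripening, where 3 and 2 of them reached the floor. All 8 had a lower signal at ripening in both stage comparisons, 6 of them past 2-fold in wild type and 8 between the RNAi line and the mutant. The meiocyte list was less uniform, with 2 of 4 measured genes past 2-fold lower at ripening in each stage comparison. In wild type PAIR2 had -0.15 and DMC1 0.09. For PRX112, the 8 endosperm genes had summed signals of 644 and 238 at meiosis, with 1 and 0 genes at the floor, and 236364 and 310293 at ripening, with 8 and 7. Of these, 7 were past 2-fold higher at ripening in both comparisons, the exception being the glutelin gene GLUB-4. Of 5 genes of the embryo and aleurone, 4 were past 2-fold higher at ripening in both. In whole panicles, more cells of a type and more RNA per cell cannot be told apart, and the part of these tissues in the signals of PRX74 and PRX112 was not tested.

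The genes with the profile most like that of PRX74 included genes of the anther. By the Euclidean distance between log2 profiles over the 4 arrays, each floored and centred, a rule added after the data were seen, the nearest genes with a descriptive name were NIP4-1, an aquaporin-family gene, at 0.19, CYP703A3, a hydroxylase of pollen wall formation, at 0.21, and BURP13, also named RAFTIN1, a gene of the tapetum, at 0.47. They ranked 2, 4 and 18 among all genes, and GER8 followed at 0.47 with rank 19. Of these, CYP703A3 also belongs to the tapetum and pollen wall marker list above, so it is not a separate observation. CYP703A3 read 6416 and 9148 at meiosis in wild type and mutant and 12.9 and 33.6 at ripening in wild type and RNAi line. NIP4-1 read 4671, 7499, 140 and 7.54 in the same order. That both resemble PRX74 follows from how they were chosen.

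For PRX112 the nearest named genes by the same measure were OsPM19L1 and OsRRA14, both at 0.23, BGLU31, a beta-glucosidase gene, at 0.26, the chitinase gene Cht2 at 0.43 and cpdk, a pyruvate orthophosphate dikinase gene, at 0.47. Their ranks among all genes were 3, 4, 6, 20 and 23. Cht2 read 71.5 and 12.9 at meiosis in wild type and mutant, and 7713 and 9153 at ripening in wild type and RNAi line. Profiles over 4 arrays, of which those of 1 stage lie at the floor for PRX74 and PRX112 alike, hold little beyond the stage difference.

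Setting the mutant against wild-type panicles at meiosis asks how transcripts change with the mutation. PRX74 read 8008 in mutant panicles against 5490 in wild type, 1.46-fold higher, a log2 ratio of 0.54, which did not pass 2-fold and stands beside 0.27 for the hybridization controls. The probe set that represents PRX112 lay below the floor on both arrays and gave no ratio, while the second PRX112 probe set read 633 in mutant panicles against 231 in wild type, a log2 ratio of 1.45 that passed 2-fold. By the representing probe sets none of the 2 members passed 2-fold, where 1.25% of 14653 genes were higher and 1.11% lower by that much, and the median over all genes was 0.05. The ratio of PRX74 lay within the range of -0.62 to 0.63 that held the 5th to the 95th percentile of all genes. The 8 tapetum and pollen wall markers had log2 ratios between 0.12 and 0.70 in this comparison, all 8 above 0, with a median of 0.50, and PRX74 lay within their range. Some other lists had medians above 0 too, with 0.98 over the 3 green tissue genes, 0.31 over 20 lignin genes and 0.30 over 13 enzymes of superoxide and hydrogen peroxide. Medians below 0 were -0.20 over 4 meiocyte genes, -0.04 over 4 laccases and -0.02 over 4 embryo and aleurone genes. The 1 measured endosperm gene had -0.57 and the 1 NADPH oxidase gene -0.01. With quantile normalization and loess centring the ratio of PRX74 was 0.40 and 0.37, and the median of these markers 0.33 and 0.28. Those scalings also changed the split of all genes, from 183 higher and 162 lower to 220 and 85 and to 286 and 115, and with the median ratio set to 0 it was 146 and 196.

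Setting the RNAi line against wild-type panicles at ripening asks the same of the grain-filling panicle. PRX112 had a signal of 6588 in the RNAi panicles against 5949 in wild type, 1.11-fold higher, a log2 ratio of 0.15, beside 0.30 for the hybridization controls. It did not pass 2-fold and turned to -0.081 after quantile normalization and -0.096 after loess centring. PRX74 lay below the floor on both arrays and gave no ratio. None of the members passed 2-fold, where 1.97% of 15360 genes were higher and 3.76% lower by that much, and the median over all genes was 0.07. The second probe set of PRX112 had a similar ratio of 0.19. The 8 endosperm markers lay between -0.22 and 0.51, with a median of 0.36 and 7 of them above 0, but a median of -0.025 with quantile normalization and -0.013 with loess centring. The split of all genes, 302 higher and 578 lower, became 494 and 367 and then 684 and 401 with the same scalings, and 237 and 718 with the median ratio set to 0.

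**Figure D4:**
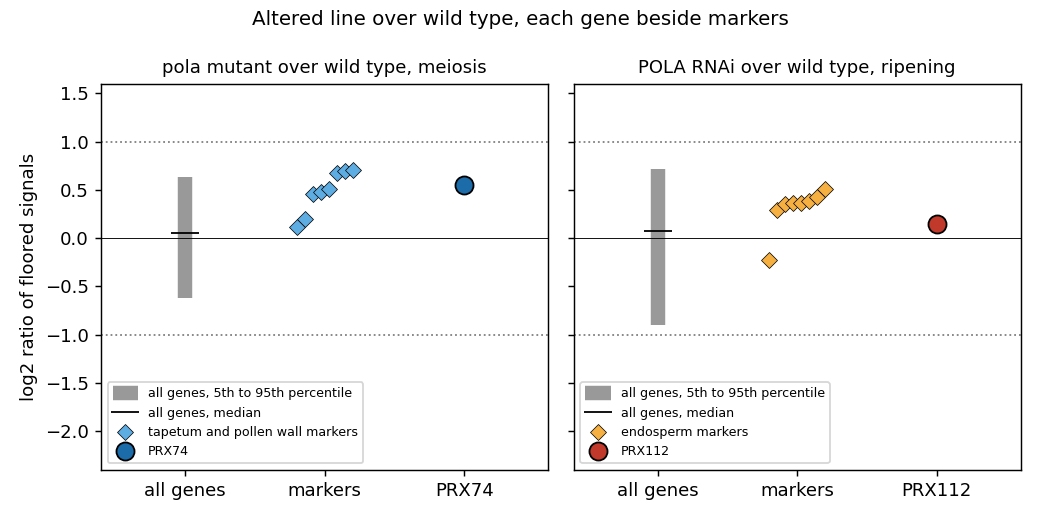
Log2 ratio of floored signals, mutant over wild type at meiosis (left) and RNAi line over wild type at ripening (right); the grey bar spans the 5th to the 95th percentile of all genes with their median as a line, diamonds are single marker genes and the large circle is the member measured in that comparison, with 2-fold dotted. PRX74 at 0.54 lies among the tapetum markers and PRX112 at 0.15 among values of the endosperm markers from -0.22 to 0.51, and neither passes 2-fold.

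The genes on either side of PRX74 in the genome went opposite ways by stage, and the measured gene beside PRX112 lay below the floor. PRX112 lies on chromosome 7 of the reference assembly, directly beside LOC4344277, a gene with the synonym peroxidase, and near LOC4344281, another gene with that synonym. LOC4344277 read 20.6 in wild type and 11.4 in mutant panicles at meiosis, and 89.5 in wild type and 30.6 in RNAi panicles at ripening. It lay below the floor on all 4 arrays, so it was not measured at either stage, while PRX112 beside it read well above the floor at ripening. LOC4344281 is not paired with a probe set in the tables used. PRX74 lies on chromosome 5, and the protein-coding gene next to it, LOC4339221, which has no descriptive name here and was singled out after its values were seen, read 20.2, 3.64, 23519 and 33594 in the same order. That gene was high at ripening only, the reverse of PRX74, with a log2 ratio of 7.17 in wild type. On the other side, LOC4339223 was lower at ripening, as PRX74 was, with -1.66 in wild type and -2.43 between the RNAi line and the mutant, and stayed above the floor on all 4 arrays.

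The phenolic substrates of peroxidases are made by genes of lignin and monolignol synthesis. Of 21 measured genes of this list, 2 were past 2-fold higher and 4 lower at ripening in wild type, with a median log2 ratio of -0.34 against 0.01 for all genes, and with quantile normalization the counts were 0 and 5. Among all genes 13.3% were higher and 14.7% lower by that much, so the share of the list that passed 2-fold was near the background. The lower ones were led by the cinnamyl alcohol dehydrogenase genes CAD7 with -2.84 and CAD6 with -1.50, and ROMT-15, a caffeoyl-CoA methyltransferase gene, had -1.35. Between the RNAi line and the mutant none of 20 was higher and 5 were lower, with a median of -0.27. In the mutant, 1 of 20 was past 2-fold higher and none lower, beside 1.25% and 1.11% of all genes. That gene was PAL06, of the phenylalanine ammonia-lyase family, which read 761 in mutant panicles against 316 in wild type at meiosis. PAL06 was also the 1 higher gene of 20 in the RNAi line, with 1198 against 409. The 1 lower there was 4CL2, a coumarate ligase gene, with -1.18, which no longer passed 2-fold with quantile normalization or loess centring. In the RNAi line 1.97% of all genes were higher and 3.76% lower by that much.

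Laccases, the other enzymes that oxidise lignin monomers, were higher and lower by stage. Of 7 measured laccase genes, 2 were past 2-fold higher at ripening in wild type, LAC24 with 1.91 and LAC7 with 1.86, and 3 were lower, among them LAC4 with -2.13 and LAC10 with -1.98. With quantile normalization 2 of 6 were higher and 4 lower. Between the RNAi line and the mutant 1 of 5 was higher and 4 were lower, and LAC24 lay below the floor on both arrays. Among all genes 13.3% were higher and 14.7% lower by that much in wild type, and 13.1% and 16.1% between the RNAi line and the mutant. LAC10 read 4299 in wild-type and 4833 in mutant panicles at meiosis, and 1090 in wild type and 1649 in the RNAi line at ripening. None of 4 laccases passed 2-fold in the mutant, and in the RNAi line LAC24 was the 1 of 5 that did, lower with -1.91. The shares of all genes were 1.25% higher and 1.11% lower in the mutant, and 1.97% and 3.76% in the RNAi line.

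Hydrogen peroxide, the substrate shared by all peroxidases, is produced and removed by other enzymes that were also on the arrays. RBOHB, the 1 NADPH oxidase gene with a matching name, was lower at ripening with -2.55 in wild type and -2.38 between the RNAi line and the mutant, and read 4162 and 4134 at meiosis in wild type and mutant. Of 13 superoxide dismutase, catalase and ascorbate peroxidase genes, 2 were past 2-fold higher at ripening in wild type, the catalase gene CAT-A with 2.28 and APX8 with 1.02 (the hybridization controls had 0.74), and 1 lower, APX1 with -1.32, against 13.3% of all genes higher and 14.7% lower. None of the 13 passed 2-fold in the mutant or in the RNAi line, under the values as reported and under the 3 other scalings. As reported, 1.25% of all genes were higher and 1.11% lower by that much in the mutant, and 1.97% and 3.76% in the RNAi line.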

How the data were processed

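The authors deposited 1 intensity per probe set and array, made with MAS5 per the submitters' processing notes and linear by its values; the version is not given in the sources used. No detection calls were used. The 187 control probe sets were set aside, leaving 57194, of which 22436 were paired with 1 gene, 95 with several and 34663 with none listed, through GEO's platform annotation. Names came from a reference of assembly GCF_034140825.1, which held all 17905 genes and is used for names, chromosomes and gene order only.

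The probe set of highest mean signal stood for its gene. Log2 ratios of floored signals were computed for 4 comparisons, the same way for all genes as background, and a ratio of 2-fold was counted. No test was run. The alternatives were quantile normalization, loess centring (span 0.3), a median ratio of 0, a pseudocount of 23.4 (the 25th percentile) with a median filter, floors of 81.7 and 327, a 4-fold threshold, the mean over probe sets, and no _x_at or _s_at probe sets. The ratio and scaling steps were tested on simulated data.

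The members and lists were chosen with earlier results of these data known. Lists were set as description words and translated to symbols once the reference, which holds no descriptions, was seen. The naming rule took members past 2-fold, members whose probe sets disagree, and up to 3 genes past 2-fold per list and comparison. The meiocyte list had 2 of 4 measured genes past 2-fold lower at ripening in wild type, and the green tissue list 1 of 3 higher. The work used matplotlib 3.10.9, statsmodels 0.14.6, pandas 2.3.3, scipy 1.17.1 and numpy 2.4.6 in Python 3.11.15.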

Additional observations from a re-analysis of the deposited data

Results flagged for a closer look

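The second probe set of PRX112 gave a signal at meiosis, outside the main measurement, that was higher in the mutant than in wild type. This probe set is the dimmer by mean signal over the 4 arrays, but the brighter at meiosis. It read 633 in the pola mutant and 231 in wild type at meiosis, a log2 ratio of 1.45 or 2.74-fold, while the probe set that represents PRX112 lay below the floor on both arrays with 4.28 and 74.96. By this probe set PRX112 would be past 2-fold higher in the mutant, as 1.25% of genes were by the probe sets that represent them. That share does not cover second probe sets. With 1 array a group the difference was not tested.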

How the results depend on the processing

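The count of members past 2-fold, 1 higher and 1 lower in each stage comparison and 0 in the mutant and RNAi comparisons, was the same under each of the 9 alternatives, the 4-fold threshold included. Under these alternatives the stage ratios kept their direction and stayed past 2-fold: PRX74 ranged from -6.07 to -4.07 in wild type and from -7.34 to -4.62 between the RNAi line and the mutant, and PRX112 from 3.10 to 6.19 and from 2.54 to 7.90. None of the alternatives used the second PRX112 probe set alone. By that probe set the ratio was 1.01 in wild type and -0.25 between the RNAi line and the mutant, so the second ratio changed direction. The ratio of PRX74 in the mutant moved from 0.54 to 0.40 with quantile normalization and 0.37 with loess centring. That of PRX112 in the RNAi line moved from 0.15 to -0.081 and -0.096 with the same alternatives and to 0.041 with the median ratio set to 0, so its direction is not settled. Setting the median ratio to 0 moved the median of all genes in the RNAi comparison by -0.10. The cause of these shifts was not tested. The split of all genes into higher and lower moved with scaling. In the mutant, 183 higher and 162 lower became 220 and 85 with quantile normalization and turned to 146 and 196 with the median ratio set to 0. In the RNAi line, 302 and 578 turned to 494 and 367 with quantile normalization and became 237 and 718 with the median ratio set to 0. The counts with loess centring were 286 and 115, and 684 and 401. With a floor of 81.7 they were 250 and 597, and 436 and 1349. A median over 2 members of opposite direction is not given. No paired analysis was possible because each group has 1 array. Signals below the floor have no order, so PRX74 and, by the probe set that represents it, PRX112 cannot be compared at the stage where they are dim.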
